A study of Homo sapiens with 12 samples.

Results

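The genes described here are 36 genes of cholesterol synthesis, uptake and efflux, out of 56140 gene symbols measured in each library. They are given by a list of symbols drawn up by function and form 3 classes: 20 enzymes of the mevalonate and sterol pathway, 8 genes of SREBP regulation, uptake and esterification, and 8 genes of efflux, LXR signalling and sterol transfer. The 12 libraries are RNA of 143B, an established osteosarcoma cell line of human origin that the labels give as wild-type, in 4 groups with 3 biological replicates each. Cells received DMSO as the solvent control, ceritinib at 1.0 µM, crenolanib at 1.0 µM, or both at 1.0 µM each, for 48 h in the same medium with fetal bovine serum and penicillin/streptomycin. Ceritinib and crenolanib are kinase inhibitors, the first developed against ALK and the second against PDGF receptors and FLT3. Levels are FPKM as the authors deposited them, that is, fragments per kilobase of transcript scaled to the library's mapped fragments, and can be set side by side between genes. Every one of the 36 genes reached 1 FPKM in at least 3 of the 12 libraries and was tested, but 3 did so only through the group in which they were highest: TM7SF2 through the combination, and ABCG1 and GRAMD1C through DMSO. A difference of these 3 from the other groups was favoured by that filter, so their values are a description and support nothing. All values come from 1 cell line, and the p-values measure the spread between its replicates. In bulk RNA, fewer cells with a transcript and less of it per cell cannot be told apart.

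Cells obtain cholesterol by making it from acetyl-CoA through mevalonate, farnesyl diphosphate, squalene and lanosterol, and by taking up lipoproteins. The transcription factor SREBP2, made from SREBF2, is held in the endoplasmic reticulum by SCAP and the INSIG proteins while membrane cholesterol is high, and is carried to the Golgi, cleaved and released to switch on synthesis genes when it falls. In the other direction, the liver X receptors (LXR, from NR1H2 and NR1H3) are activated by oxysterols and switch on the efflux pumps ABCA1 and ABCG1.

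The promoters of 5 members are shown because they belong to genes on which the comparisons below turn: the transcription factor gene SREBF2, the synthesis genes HMGCS1, MVD and MSMO1, and the LXR target gene ABCA1. The sequences are RefSeq reference sequences of build GRCh38.p14, read 5′ to 3′ on the gene's strand, within the 250 bases before the most upstream listed start, and the part inside an untranslated region of GENCODE release 29 was left out except for a short piece around the ABCA1 match. Capitals mark matches to 3 motifs searched on both strands with any overlap kept: the sterol regulatory element TCACNCCAC, the CCAAT box CCAAT, and the LXR element AGGTNANNNNNGGTCA.
SREBF2 (chr22:41832855-41833078, plus strand): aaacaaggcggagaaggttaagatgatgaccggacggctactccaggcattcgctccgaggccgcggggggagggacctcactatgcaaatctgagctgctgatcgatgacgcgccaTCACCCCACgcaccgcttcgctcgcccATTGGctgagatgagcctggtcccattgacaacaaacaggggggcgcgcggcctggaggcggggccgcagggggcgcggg
HMGCS1 (chr5:43313513-43313662, minus strand): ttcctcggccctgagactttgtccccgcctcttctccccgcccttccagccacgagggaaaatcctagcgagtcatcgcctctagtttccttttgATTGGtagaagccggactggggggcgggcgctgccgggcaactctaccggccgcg
MVD (chr16:88663149-88663341, minus strand): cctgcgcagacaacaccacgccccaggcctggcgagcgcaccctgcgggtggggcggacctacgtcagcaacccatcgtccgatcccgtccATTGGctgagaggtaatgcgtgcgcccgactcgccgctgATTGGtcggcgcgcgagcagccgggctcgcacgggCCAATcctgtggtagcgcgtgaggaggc
MSMO1 (chr4:165327419-165327622, plus strand): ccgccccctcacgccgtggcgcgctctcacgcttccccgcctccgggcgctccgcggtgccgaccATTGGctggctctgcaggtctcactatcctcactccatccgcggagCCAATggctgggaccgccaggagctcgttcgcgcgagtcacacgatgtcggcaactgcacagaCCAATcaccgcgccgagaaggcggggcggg
ABCA1 (chr9:104928202-104928231, minus strand): caggcttTGACCGATAGTAACCTctgcgct

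Windows of 300 bases, from 250 before to 50 after a listed start, were available for 31 of the 36 members, in 43 windows, and ACAT2, FDFT1, SQLE, ABCG1 and GRAMD1B were not matched. The sterol regulatory element motif, TCACNCCAC, was in 1.13% of all 35116 windows in the table and in 1 member, SREBF2, where it begins 133 bases before the start. The LXR element AGGTNANNNNNGGTCA was in 0.09397% of all windows and in 1 member, ABCA1, where it begins 69 bases before the start on the minus strand of the gene. The CCAAT box was common: 34.6% of all windows held one, as did windows of 21 of the 31 members and of 14 of the 17 enzymes with a window; members with several windows had more chances to hold it. A match describes letters in these windows and no more.

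The combination libraries stood apart from the other 9 in a way that touches every combination value below. Across 11733 genes with a known GC content and length, the combination change against DMSO followed GC content (Spearman's rho 0.654) and transcript length (rho -0.384). Both together accounted for 46.9% of its variance, compared with 1.03% (ceritinib) and 1.99% (crenolanib). All tested genes together had a median change of -0.16 on the log2 scale for the combination, and -0.34 after scaling to TPM. Combination values are therefore given as deposited and again with the GC and length trend removed, where the median was -0.012. A true drug effect that follows GC content or length would be removed with the trend, and the 2 cannot be told apart here. Depth was estimated at 19.6 to 22.1 M fragments for the combination libraries and 22.7 to 28.2 M for the others, and 10284 to 10358 genes reached 1 FPKM in the combination libraries compared with 11220 to 11464. The 8 lymphoid and thymic markers, checked because the extraction label speaks of a thymic sample, were all under 1 FPKM in every group mean. Of the 8 osteoblast lineage and mesenchymal markers, VIM and SPARC were abundant, while 5 or 6 in each group were under 1 FPKM, SP7 and BGLAP among them. Of 5 epithelial markers also checked, 4 in each group stayed under 1 FPKM. The other, EPCAM, had means of 1.29 with DMSO, 1.94 with ceritinib, 0.974 with crenolanib and 0.907 with both.

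Against DMSO, crenolanib raised genes of the pathway more often than it lowered them, and ceritinib changed fewer of them. The combination changed most of them, as it did most of all tested genes, with a larger share rising and a smaller share falling. With crenolanib 18 of 36 members rose and 3 fell, when 13.0% of all 11944 tested genes rose and 13.0% fell. With ceritinib 9 rose and 5 fell, against a background of 20.3% higher and 16.3% lower, so the share of members that rose was near the background. Without ceritinib replicate 1, 5 rose, and without DMSO replicate 2, 3 fell. On the TPM scale 4 rose, and there the median ceritinib change of all tested genes was -0.055, compared with 0.013 as deposited. The shares over all genes are not given for these other fits, so their counts are not set against a background. With both drugs 24 rose and 9 fell as deposited (background 36.8% and 50.9%), and 26 rose and 5 fell once corrected (background 39.5% and 40.7%). Of these calls, 21 members were higher and 4 lower both ways, and 3 were called in opposite directions. Changes are differences in mean log2(FPKM + 1) ± their standard error, n = 3 per group, tested with limma, and p-values are Benjamini-Hochberg adjusted over all tested genes, with a gene said to rise or fall at an adjusted p under 0.05. Over the 33 members that passed the filter without the help of any 1 group, 9 rose and 4 fell with ceritinib, 18 rose and 2 fell with crenolanib and 23 rose and 7 fell with both as deposited (25 rose and 4 fell corrected). The 3 comparisons share the DMSO libraries, so they are not independent of one another. Libraries did not overlap with DMSO in 23 of 36 members with ceritinib, 24 with crenolanib and 34 with both. Over all tested genes this held for 52.7%, 43.2% and 87.6%, so a lack of overlap alone singles out no gene. The share was 87.3% between combination and ceritinib, 87.0% between combination and crenolanib, and 48.4% between the single drugs.

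**Figure D1:**
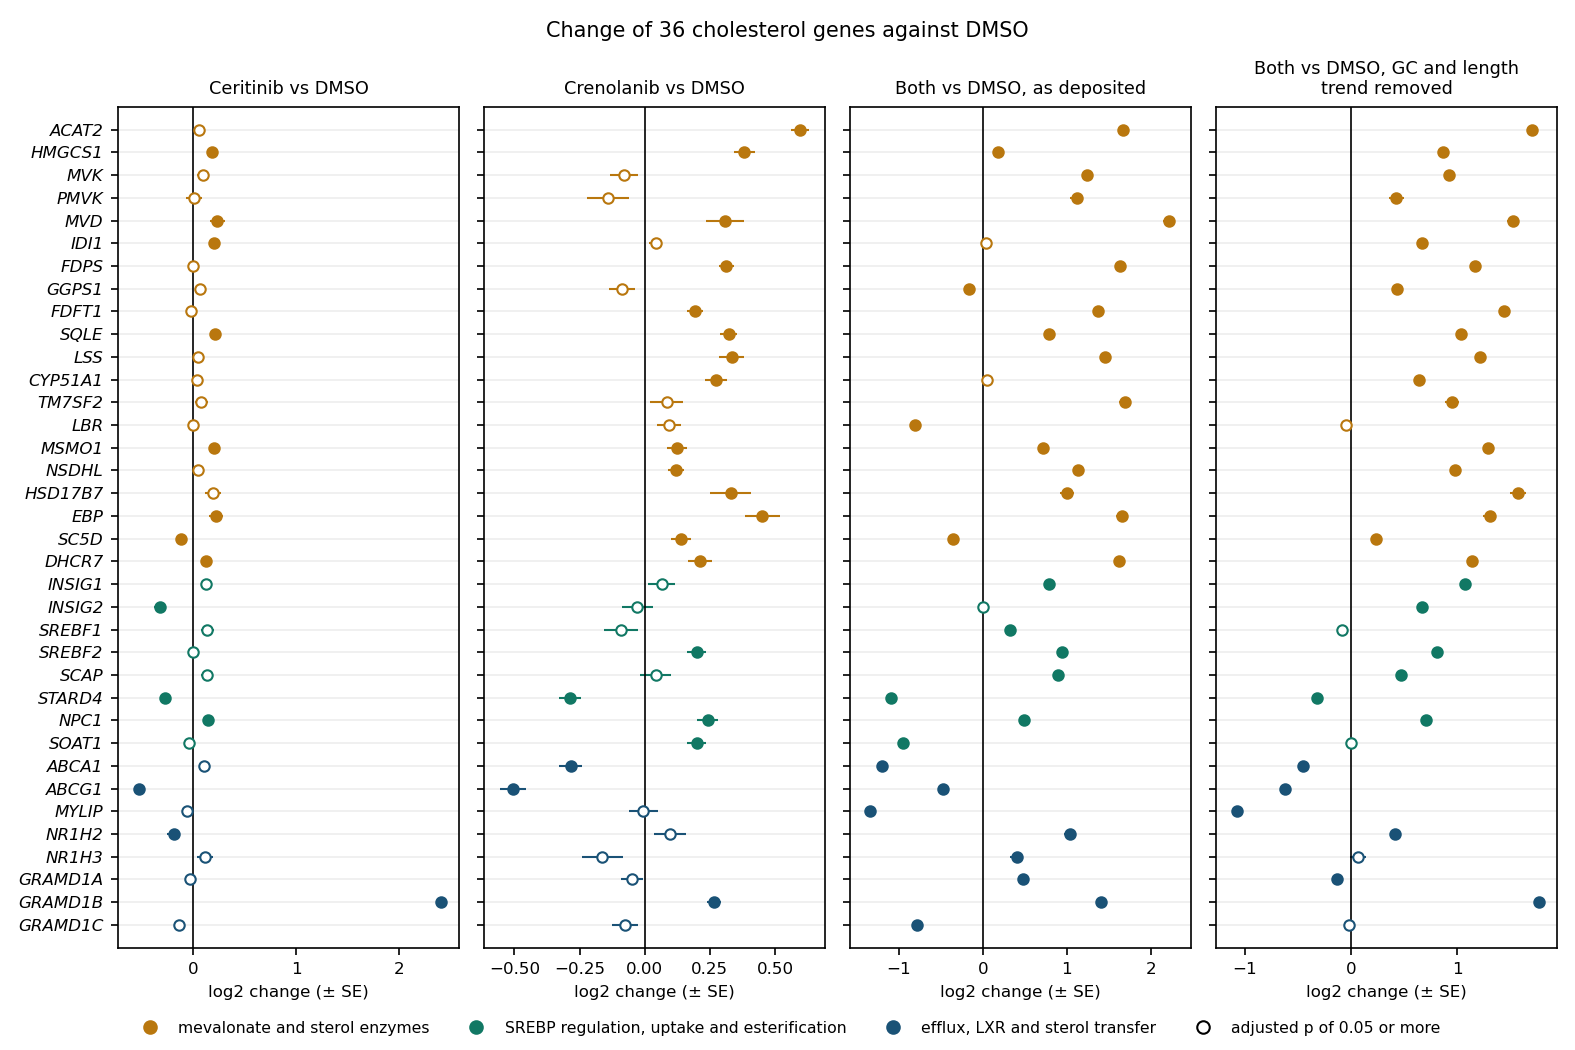
Log2 change against DMSO (horizontal axis, ± SE, n = 3 per group) of the 36 members (rows) with ceritinib, crenolanib and both drugs, the last as deposited and with the GC and length trend removed; colours mark the 3 classes, open points an adjusted p of 0.05 or more, and each panel has its own scale. The enzymes (top rows) lie mostly right of 0 with crenolanib. With both drugs 15 of 20 rose as deposited and 19 of 20 corrected (36.8% and 39.5% over all tested genes). Both counts include TM7SF2, whose rise the filter favoured. GRAMD1B stands far right with ceritinib at 2.402.

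Among the enzymes, 14 of 20 rose and 0 fell with crenolanib, when 13.0% of all tested genes rose and 13.0% fell. The median change was 0.20 over the 20 compared with -0.0036 over all tested genes. These small shifts were spread along the pathway: 4 of the 8 enzymes from acetyl-CoA to the isoprenoids and 10 of the 12 from squalene to cholesterol rose. Ceritinib raised 7 of the 20 and lowered 1 (background 20.3% and 16.3%), with a median of 0.076. On the TPM scale only IDI1, SQLE and MSMO1 still rose with ceritinib, while SC5D and FDFT1 fell. With both drugs 15 rose and 3 fell as deposited (background 36.8% and 50.9%), with a median 1.28 above that of all genes. Corrected, 19 rose and 0 fell (background 39.5% and 40.7%), with a median 1.02 above that of all genes. The 15 and the 19 include TM7SF2, whose rise the filter favoured.

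ACAT2 (chr6:159760328-159779055, plus strand), the cytosolic thiolase that joins acetyl-CoA units at the start of the pathway, was at 32.1, 31.9 and 31.6 with DMSO and 32.04, 35.1 and 32.7 with ceritinib. With crenolanib ACAT2 was at 49.6, 48.6 and 47.9 and with both drugs at 101, 103 and 108. DMSO and ceritinib overlapped in neighbouring values near 32, every crenolanib library lay above both, and every combination library lay above all others. The change was 0.060 ± 0.0354, adjusted p = 0.206 with ceritinib and 0.60 ± 0.0354, adjusted p = 3.96e-07 with crenolanib. With both drugs it was 1.67 ± 0.0354, adjusted p = 7.11e-13 as deposited and 1.701 ± 0.0309, adjusted p = 4.43e-13 corrected, a ratio of mean FPKM of 3.26. Its combination value moved little with the correction. HMGCS1 (chr5:43289395-43313512, minus strand), which makes HMG-CoA, was at 19.2, 20.6 and 19.4 with DMSO and 22.1, 22.5 and 23.04 with ceritinib. With crenolanib HMGCS1 was at 26.8, 25.3 and 25.99 and with both drugs at 21.1, 22.7 and 23.6. Here crenolanib gave the highest libraries, and the ceritinib and combination libraries overlapped between DMSO and crenolanib. HMGCS1 rose by 0.19 ± 0.0415, adjusted p = 0.00443 with ceritinib, though not on the TPM scale (adjusted p = 0.0671). It rose by 0.38 ± 0.0415, adjusted p = 5.42e-05 with crenolanib. Its combination change depended on the scale: 0.18 ± 0.0415, adjusted p = 0.00134 as deposited and 0.86 ± 0.0304, adjusted p = 8.49e-11 corrected, but -0.040 when libraries were scaled without the genes of mitochondrial DNA.

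The next 4 enzymes turn mevalonate into the isoprenoid building blocks. MVK (chr12:109573255-109598117, plus strand), mevalonate kinase, was at 2.79, 2.47 and 2.79 with DMSO and 2.97, 2.97 and 2.85 with ceritinib. With crenolanib MVK was at 2.21, 2.72 and 2.53 and with both drugs at 7.81, 7.61 and 7.63. The combination libraries were well above the other 9, which lay close together. The change was 1.24 ± 0.0547, adjusted p = 2.53e-10 as deposited and 0.93 ± 0.0497, adjusted p = 3.49e-09 corrected. Neither single drug passed the test for MVK (0.10 with ceritinib and -0.080 with crenolanib). PMVK (chr1:154924734-154936991, minus strand) is phosphomevalonate kinase. It went from 4.68 ± 0.542 FPKM in DMSO to 11.3 ± 1.42 with both drugs (mean ± SD, n = 3). The change was 1.12 as deposited and 0.42 corrected. MVD (chr16:88651935-88663161, minus strand), mevalonate diphosphate decarboxylase, had the largest deposited combination change of the 36 on the log2(FPKM + 1) scale. By the ratio of mean FPKM it stood at 5.39, under TM7SF2 at 5.93, while ABCA1 fell to 0.125 of its DMSO mean. MVD went from 4.995 ± 0.373 to 26.9 ± 2.56 FPKM, a change of 2.22 ± 0.0739, adjusted p = 1.93e-11 as deposited and 1.52 ± 0.05604, adjusted p = 1.24e-10 corrected. With 1 drug MVD rose by 0.24 ± 0.0739, adjusted p = 0.0263 (ceritinib) and 0.31 ± 0.0739, adjusted p = 0.00983 (crenolanib). The ceritinib call was lost without DMSO replicate 1, DMSO replicate 2 or ceritinib replicate 1 (adjusted p = 0.0506 to 0.107). IDI1 (chr10:1039152-1049170, minus strand), the isomerase of isopentenyl diphosphate, was at 11.6, 11.5 and 11.6 with DMSO and 13.4, 13.7 and 13.4 with ceritinib. With crenolanib IDI1 was at 11.9, 12.2 and 11.7 and with both drugs at 11.9, 11.7 and 11.96. Only the ceritinib libraries stood above the rest, with 0.21 ± 0.0261, adjusted p = 7.73e-05. Crenolanib gave 0.041 and the combination 0.036 as deposited, neither past the test. The corrected combination change was 0.67 ± 0.0288, adjusted p = 4.81e-10.

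FDPS and GGPS1 draw on these units to make farnesyl and geranylgeranyl diphosphate, the second of which leads away from cholesterol to protein prenylation. FDPS (chr1:155308748-155320666, plus strand) was at 14.3, 15.01 and 14.7 with DMSO and 14.8, 14.8 and 14.5 with ceritinib. With crenolanib FDPS was at 17.9, 18.7 and 18.9 and with both drugs at 47.9, 47.3 and 47.3. DMSO and ceritinib overlapped, crenolanib lay above them, and the combination libraries, close to one another, lay above everything else. The change was 0.31 ± 0.02803, adjusted p = 1.14e-05 with crenolanib and 1.63 ± 0.02803, adjusted p = 1.94e-13 as deposited and 1.17 ± 0.0241, adjusted p = 1.08e-12 corrected with both. GGPS1 (chr1:235327350-235344532, plus strand) was at 3.28, 3.04 and 3.45 with DMSO and 3.45, 3.37 and 3.59 with ceritinib. With crenolanib GGPS1 was at 3.11, 2.904 and 3.001 and with both drugs at 2.59, 2.79 and 3.001. The combination libraries lay below DMSO and ceritinib and overlapped with crenolanib. GGPS1 fell by 0.17 ± 0.0499, adjusted p = 0.00748 as deposited and rose by 0.44 ± 0.0439, adjusted p = 1.35e-06 corrected. Its direction rests on the correction.

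From squalene onward, FDFT1 (chr8:11795573-11839309, plus strand), squalene synthase and the first enzyme committed to sterols, was at 39.8, 40.1 and 39.01 with DMSO and 38.5, 39.4 and 39.9 with ceritinib. With crenolanib FDFT1 was at 44.9, 45.6 and 45.8 and with both drugs at 100.2, 109 and 104. Crenolanib lay a little above DMSO in all libraries and the 3 combination libraries far above. The change was 0.19 ± 0.0297, adjusted p = 0.000668 with crenolanib and 1.37 ± 0.0297, adjusted p = 8.46e-13 as deposited and 1.43 ± 0.0248, adjusted p = 3.21e-13 corrected with both. SQLE (chr8:124998497-125022283, plus strand), squalene epoxidase, which is a rate-controlling step after mevalonate, was at 17.7, 17.8 and 17.8 with DMSO and 21.02, 21.4 and 20.001 with ceritinib. With crenolanib SQLE was at 22.6, 22.7 and 22.1 and with both drugs at 30.3, 31.1 and 32.96. The 4 groups kept the order DMSO, ceritinib, crenolanib, combination without overlap. SQLE rose by 0.22 ± 0.0342, adjusted p = 0.000423 with ceritinib and 0.32 ± 0.0342, adjusted p = 4.66e-05 with crenolanib. With both drugs it rose by 0.79 ± 0.0342, adjusted p = 2.1e-10 as deposited and 1.03 ± 0.0305, adjusted p = 2.07e-11 corrected. LSS (chr21:46188141-46228824, minus strand), which closes the lanosterol ring system, was at 5.98 ± 0.165 FPKM in DMSO. LSS rose by 0.33 with crenolanib and by 1.45 (1.21 corrected) with both. CYP51A1 (chr7:92112151-92134803, minus strand), lanosterol demethylase, was at 26.6, 27.3 and 27.3 with DMSO and 27.3, 29.1 and 27.3 with ceritinib. With crenolanib CYP51A1 was at 34.5, 31.6 and 32.8 and with both drugs at 26.5, 29.04 and 28.6. Its crenolanib libraries were the highest and the other 3 groups overlapped. Crenolanib gave 0.27 ± 0.0412, adjusted p = 0.000569. The combination gave 0.048 ± 0.0412, adjusted p = 0.283 as deposited and 0.64 ± 0.0294, adjusted p = 8.49e-10 corrected.

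TM7SF2 and LBR are alternative sterol reductases of the same step. TM7SF2 (chr11:65111845-65116384, plus strand) was near 1 FPKM outside the combination, with 0.914, 0.7998 and 0.746 in DMSO and 4.79, 4.75 and 5.04 with both drugs, a change of 1.69 (0.95 corrected) that the filter favoured. It overlaps VPS51 on the same strand, so its reads may be shared. LBR (chr1:225401502-225428925, minus strand), also a nuclear lamina anchor, was at 12.3, 12.4 and 12.1 with DMSO and 11.99, 12.7 and 12.4 with ceritinib. With crenolanib LBR was at 14.1, 12.8 and 12.8 and with both drugs at 6.19, 6.66 and 7.02. It went down in all combination libraries as deposited, and the fall of 0.80 ± 0.0459, adjusted p = 3.02e-09 became -0.047 ± 0.03001, adjusted p = 0.164 corrected. MSMO1 (chr4:165327623-165343160, plus strand), which oxidises the methyl groups of lanosterol products, was at 15.8, 16.5 and 16.8 with DMSO and 19.2, 18.4 and 19.4 with ceritinib. With crenolanib MSMO1 was at 18.4, 17.8 and 17.5 and with both drugs at 26.2, 28.8 and 27.9. All drug libraries lay above all DMSO libraries, with 0.20 ± 0.0378, adjusted p = 0.00133 for ceritinib and 0.12 ± 0.0378, adjusted p = 0.0323 for crenolanib. Both drugs together gave 0.72 ± 0.0378, adjusted p = 1.32e-09 as deposited and 1.29 ± 0.0322, adjusted p = 4.78e-12 corrected. The crenolanib call of MSMO1 was lost without DMSO replicate 1, DMSO replicate 2, crenolanib replicate 1 or crenolanib replicate 2 (adjusted p = 0.0636 to 0.118). NSDHL (chrX:152830967-152869729, plus strand), the dehydrogenase of the same demethylation, was at 14.5, 14.98 and 15.1 with DMSO and 15.4, 15.9 and 15.04 with ceritinib. With crenolanib NSDHL was at 16.5, 16.2 and 15.98 and with both drugs at 33.8, 34.6 and 32.7. It rose by 0.12 ± 0.0313, adjusted p = 0.0153 with crenolanib, a call lost without DMSO replicate 1 or crenolanib replicate 1 (adjusted p = 0.0505 to 0.0635). The combination libraries were far above the rest, with 1.13 ± 0.0313, adjusted p = 4.27e-12 as deposited and 0.98 ± 0.0304, adjusted p = 3.12e-11 corrected.

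HSD17B7 (chr1:162790702-162812817, plus strand) is the reductase that completes the demethylation, and it has a near-identical pseudogene copy. HSD17B7 rose by 0.33 with crenolanib and by 1.002 (1.57 corrected) with both. Its level went from 3.001 ± 0.329 FPKM in DMSO to 7.03 ± 0.8298 with both. EBP (chrX:48521158-48528716, plus strand), the sterol isomerase, rose by 0.23 ± 0.0672, adjusted p = 0.0201 with ceritinib, a call lost without DMSO replicate 1, DMSO replicate 3 or ceritinib replicate 1 (adjusted p = 0.0684 to 0.0836). It rose by 0.45 ± 0.0672, adjusted p = 0.000522 with crenolanib and by 1.65 ± 0.0672, adjusted p = 1.19e-10 as deposited and 1.302 ± 0.0644, adjusted p = 1.71e-09 corrected with both. SC5D (chr11:121292453-121308694, plus strand), the sterol desaturase, was at 7.39, 8.06 and 7.65 with DMSO and 6.82, 7.15 and 7.04 with ceritinib. With crenolanib SC5D was at 8.59, 8.802 and 8.32 and with both drugs at 5.82, 5.65 and 5.92. The ceritinib, DMSO and crenolanib libraries followed each other upward without overlap, and the combination was lowest. SC5D fell by 0.12 ± 0.0369, adjusted p = 0.0241 with ceritinib, a call lost without DMSO replicate 2, DMSO replicate 3, ceritinib replicate 1 or ceritinib replicate 3 (adjusted p = 0.0526 to 0.102). It rose by 0.14 ± 0.0369, adjusted p = 0.0164 with crenolanib, a call lost without DMSO replicate 1, DMSO replicate 3 or crenolanib replicate 2 (adjusted p = 0.052 to 0.0705). With both drugs the fall of 0.36 ± 0.0369, adjusted p = 1.14e-06 turned into a rise of 0.23 ± 0.0375, adjusted p = 0.000102 corrected. DHCR7 (chr11:71428193-71452868, minus strand) reduces a double bond at the end of the pathway to give cholesterol. It rose by 0.21 with crenolanib and by 1.62 (1.14 corrected) with both, from 21.4 ± 1.04 to 67.9 ± 2.66 FPKM. The ceritinib change of 0.13 passed, but not without DMSO replicate 2, DMSO replicate 3, crenolanib replicate 1, ceritinib replicate 1, ceritinib replicate 2, ceritinib replicate 3 or combination replicate 2 (adjusted p = 0.0529 to 0.171).

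**Figure D2:**
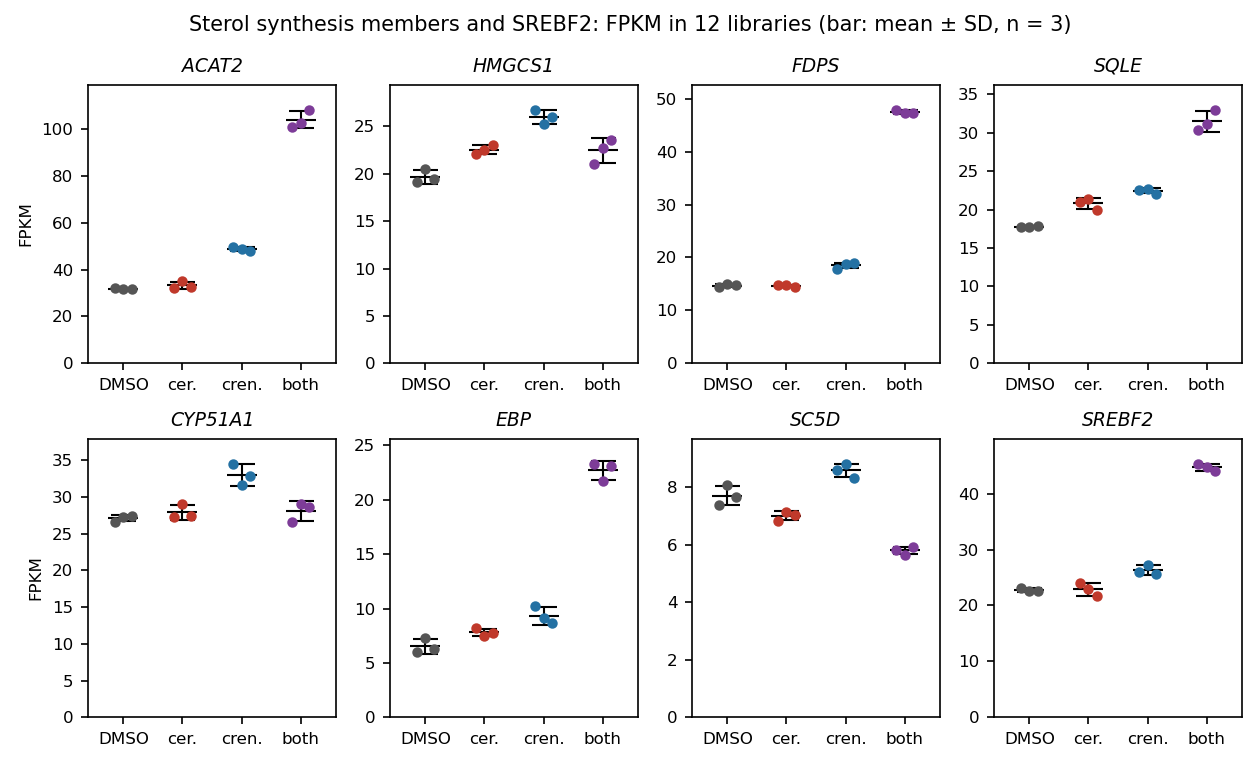
FPKM (vertical axis, from 0) of 7 synthesis enzymes and SREBF2 in the 12 libraries, by group (cer., ceritinib; cren., crenolanib; both, the combination); points are libraries and bars the mean ± SD, n = 3. ACAT2, FDPS, SQLE, EBP and SREBF2 reach their highest values in the 3 combination libraries, while HMGCS1 and CYP51A1 are highest with crenolanib and SC5D is lowest with both drugs.

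The deposited combination changes of the enzymes lined up with their own GC content. Over the 20 enzymes, Spearman's rho between GC percent of the longest transcript and the combination change was 0.845 as deposited and 0.3398 corrected. Over all 36 members it was 0.654 and 0.164. The points share the same libraries, so this is a description. The 3 enzymes that fell as deposited were low in GC: LBR at 37.8%, SC5D at 38.6% and GGPS1 at 40.4%. MSMO1, at 38.1% GC, lay between them and rose. At the other end, MVD, at 63.7%, had a smaller corrected than deposited change and still rose.

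**Figure D3:**
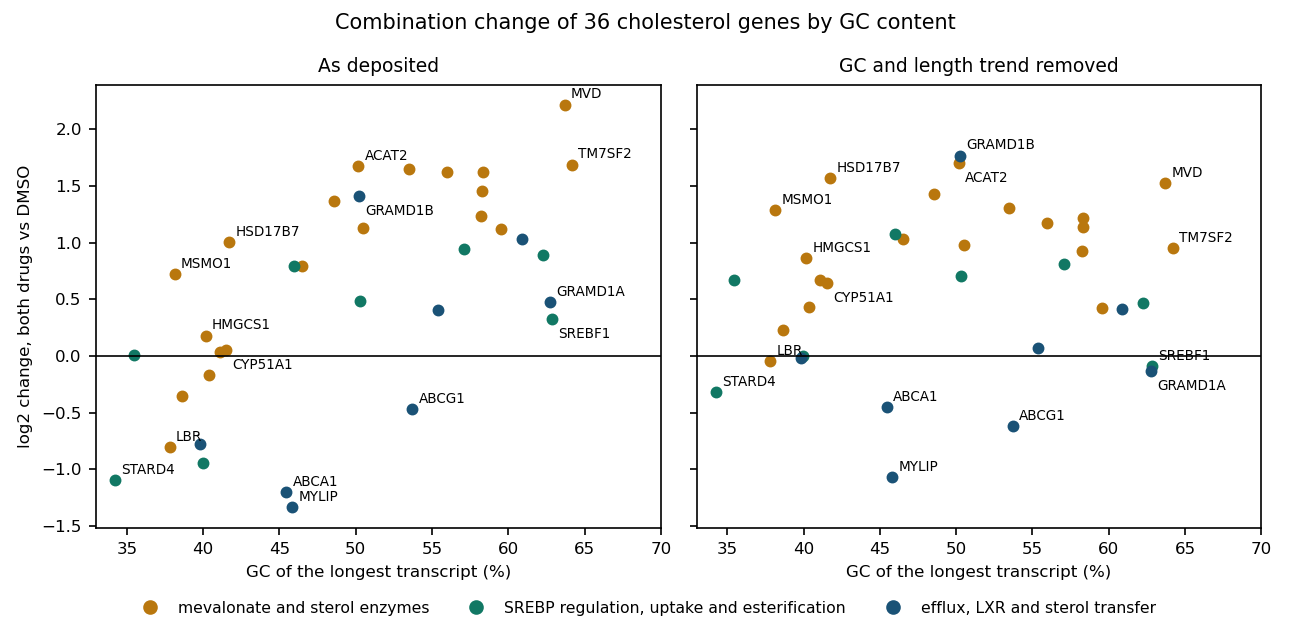
Log2 change with both drugs against DMSO (vertical axis) plotted against the GC percent of the longest transcript (horizontal axis) for the 36 members, as deposited (left) and with the GC and length trend of all genes removed (right); colours mark the 3 classes. The upward slope on the left (rho 0.654) is weaker on the right (rho 0.164), where the enzymes lie above 0 except LBR.

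Of the 5 genes for the SREBPs and their regulators, 4 were higher with both drugs and none was lower, as deposited and corrected. They were not the same 4 on both scales. Over all tested genes 36.8% were higher and 50.9% lower as deposited, and 39.5% and 40.7% corrected. SREBF2 (chr22:41833079-41907308, plus strand) was at 23.2, 22.7 and 22.6 with DMSO and 24.05, 22.97 and 21.7 with ceritinib. With crenolanib SREBF2 was at 26.01, 27.3 and 25.7 and with both drugs at 45.3, 44.7 and 44.1. DMSO and ceritinib overlapped, crenolanib lay above DMSO, and the combination libraries lay far above the other 9. The change was 0.20 ± 0.0365, adjusted p = 0.00206 with crenolanib and 0.94 ± 0.0365, adjusted p = 7.78e-11 as deposited and 0.81 ± 0.0282, adjusted p = 7.85e-11 corrected with both. SREBF1 (chr17:17810399-17837002, minus strand), whose products act mainly on fatty acid genes, was at 8.58, 8.66 and 8.19 with DMSO and 9.96, 9.097 and 9.29 with ceritinib. With crenolanib SREBF1 was at 7.32, 8.7003 and 7.704 and with both drugs at 11.97, 10.7 and 10.03. The combination libraries were the highest as deposited. The rise of 0.33 ± 0.0651, adjusted p = 0.000444 became -0.090 ± 0.0403, adjusted p = 0.0568 corrected, so its combination change did not hold on both scales. Neither single drug changed SREBF1 past the test as deposited (0.14 with ceritinib, -0.092 with crenolanib). When corrected, both passed in opposite directions, at 0.12 ± 0.0403, adjusted p = 0.0280 with ceritinib and -0.12 ± 0.0403, adjusted p = 0.0486 with crenolanib.

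SCAP (chr3:47413694-47477126, minus strand), the sterol sensor that escorts SREBP, was at 11.6, 11.5 and 11.2 with DMSO and 13.5, 12.4 and 12.1 with ceritinib. With crenolanib SCAP was at 11.2, 12.99 and 11.4 and with both drugs at 23.9, 21.1 and 21.4. The combination libraries stood clear of the other 9, with 0.89 ± 0.0599, adjusted p = 1.44e-08 as deposited and 0.47 ± 0.0352, adjusted p = 8.01e-08 corrected, and the other groups lay close together. With ceritinib SCAP was called only when corrected (0.13, adjusted p = 0.101 as deposited and 0.12, adjusted p = 0.0167 corrected). INSIG1 (chr7:155297776-155310235, plus strand), the anchor that is itself an SREBP target, was at 6.26, 6.73 and 6.33 with DMSO and 6.905, 7.04 and 7.46 with ceritinib. With crenolanib INSIG1 was at 6.78, 6.85 and 6.704 and with both drugs at 10.8, 12.9 and 12.01. The combination libraries were the highest, and INSIG1 rose by 0.79 ± 0.0524, adjusted p = 1.28e-08 as deposited and 1.07 ± 0.0468, adjusted p = 5.35e-10 corrected with both drugs. Its changes of 0.13 with ceritinib and 0.065 with crenolanib did not pass. INSIG2 (chr2:118088452-118110997, plus strand), its paralogue, was at 1.77, 1.75 and 1.86 with DMSO and 1.0998, 1.45 and 1.16 with ceritinib. With crenolanib INSIG2 was at 1.78, 1.69 and 1.74 and with both drugs at 1.67, 1.93 and 1.81. It was low in the ceritinib libraries, with -0.32 ± 0.0593, adjusted p = 0.00127, and the other 3 groups overlapped. The combination change was 0.0072 as deposited and 0.67 ± 0.0519, adjusted p = 1.15e-07 corrected.

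The 3 genes of uptake and storage went different ways. NPC1 (chr18:23506184-23586898, minus strand), which moves lipoprotein cholesterol out of late endosomes, was at 8.54, 8.42 and 7.81 with DMSO and 9.67, 9.096 and 9.03 with ceritinib. With crenolanib NPC1 was at 10.3, 9.49 and 10.1 and with both drugs at 11.9, 11.98 and 12.002. The groups stepped up from DMSO through the single drugs to the combination, with ceritinib and crenolanib overlapping. NPC1 rose by 0.15 ± 0.0405, adjusted p = 0.0129 with ceritinib, a call lost on the TPM scale and without DMSO replicate 3 or ceritinib replicate 1 (adjusted p = 0.056 to 0.0576). It rose by 0.24 ± 0.0405, adjusted p = 0.00112 with crenolanib and by 0.49 ± 0.0405, adjusted p = 1.26e-07 as deposited and 0.70 ± 0.03697, adjusted p = 2.96e-09 corrected with both. STARD4 (chr5:111496033-111512590, minus strand), a soluble sterol carrier, was at 4.602, 4.58 and 4.66 with DMSO and 3.51, 3.64 and 3.81 with ceritinib. With crenolanib STARD4 was at 3.71, 3.64 and 3.46 and with both drugs at 1.57, 1.57 and 1.74. All drug libraries lay below all DMSO libraries, ceritinib and crenolanib overlapped, and the combination was lowest. STARD4 fell by 0.27 ± 0.0415, adjusted p = 0.000349 with ceritinib and by 0.29 ± 0.0415, adjusted p = 0.000446 with crenolanib. With both drugs it changed by -1.097 ± 0.0415, adjusted p = 6.15e-11 as deposited and -0.32 ± 0.0363, adjusted p = 4.51e-06 corrected. Against each single drug, the corrected combination values of STARD4 were -0.062 and -0.025, neither past the test. SOAT1 (chr1:179293714-179358680, plus strand), which esterifies cholesterol for storage, was at 6.28, 6.25 and 6.02 with DMSO and 5.92, 6.13 and 5.99 with ceritinib. With crenolanib SOAT1 was at 7.34, 7.01 and 7.37 and with both drugs at 2.71, 2.64 and 2.83. Crenolanib lay above and the combination below the other groups. The change was 0.20 ± 0.0349, adjusted p = 0.00156 with crenolanib. With both drugs it was -0.95 ± 0.0349, adjusted p = 4.86e-11 as deposited, but 0.0023 ± 0.0312, adjusted p = 0.95 corrected.

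In the class of efflux, LXR and sterol transfer, 1 of 8 rose and 2 fell with crenolanib, 1 and 2 with ceritinib, and 4 and 4 with both as deposited (2 and 4 corrected). Over all tested genes the shares that rose and fell were 20.3% and 16.3% with ceritinib, 13.0% and 13.0% with crenolanib, and 36.8% and 50.9% with both as deposited (39.5% and 40.7% corrected). The crenolanib and ceritinib shares of these 8 that rose, 12.5% with each, were at or below the background, and the counts that fell include ABCG1 and, with both drugs as deposited, GRAMD1C. ABCA1 (chr9:104781002-104928237, minus strand), the pump that loads cholesterol onto apolipoprotein acceptors, was at 1.804, 1.79 and 1.89 with DMSO and 2.02, 1.99 and 2.13 with ceritinib. With crenolanib ABCA1 was at 1.36, 1.27 and 1.33 and with both drugs at 0.259, 0.2395 and 0.186. No groups overlapped: crenolanib lay below DMSO, ceritinib above it and the combination far below. ABCA1 fell by 0.28 ± 0.0448, adjusted p = 0.000748 with crenolanib, while ceritinib gave 0.11 ± 0.0448, adjusted p = 0.0757. With both drugs ABCA1 changed by -1.202 ± 0.0448, adjusted p = 5.4e-11 as deposited and -0.45 ± 0.0446, adjusted p = 1.14e-06 corrected. ABCG1 (chr21:42199689-42297244, plus strand), which exports sterol to larger lipoproteins, was at 1.66, 1.74 and 1.63 with DMSO and 0.858, 0.862 and 0.859 with ceritinib. With crenolanib ABCG1 was at 0.943, 0.932 and 0.779 and with both drugs at 0.9497, 0.998 and 0.851. It was at or above 1 FPKM in the DMSO libraries alone, and the 3 drug groups lay together at a lower level. Its difference from DMSO was -0.52 with ceritinib, -0.51 with crenolanib and -0.47 with both (-0.62 corrected), given with no test because ABCG1 reached the level for testing through DMSO alone. Ceritinib and crenolanib differed by -0.018 in ABCG1, with a 95% interval from -0.13 to 0.093.

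MYLIP (chr6:16129125-16148248, plus strand), an LXR target whose product marks lipoprotein receptors for degradation, was at 3.41, 3.15 and 3.21 with DMSO and 3.11, 3.09 and 3.12 with ceritinib. With crenolanib MYLIP was at 3.14, 3.12 and 3.47 and with both drugs at 0.541, 0.752 and 0.768. It was near 3 FPKM in 9 libraries and under 1 in the 3 combination libraries. The change was -1.34 ± 0.0567, adjusted p = 1.74e-10 as deposited and -1.07 ± 0.0517, adjusted p = 1.37e-09 corrected, and neither single drug passed (-0.052 and -0.0050). NR1H2 (chr19:50329653-50382982, plus strand), the widely expressed LXR, was at 4.14, 4.65 and 4.05 with DMSO and 3.84, 3.24 and 3.85 with ceritinib. With crenolanib NR1H2 was at 4.54, 4.87 and 4.52 and with both drugs at 10.3, 9.63 and 9.46. Ceritinib lay below DMSO and the combination well above all. Ceritinib gave -0.19 ± 0.06105, adjusted p = 0.0307, a call lost without DMSO replicate 2 or ceritinib replicate 2 (adjusted p = 0.123 to 0.124) and with a replicate block. The combination gave 1.03 ± 0.06105, adjusted p = 4.18e-09 as deposited and 0.42 ± 0.0485, adjusted p = 5.37e-06 corrected. NR1H3 (chr11:47248300-47269032, plus strand), the other LXR, was scarce at 0.732, 1.03 and 0.969 with DMSO and 1.04, 1.09 and 1.05 with ceritinib. With crenolanib NR1H3 was at 0.5197, 0.845 and 0.758 and with both drugs at 1.57, 1.38 and 1.62. It was highest with both drugs as deposited, 0.40 ± 0.0792, adjusted p = 0.000386, but 0.067 ± 0.0762, adjusted p = 0.429 corrected, and neither drug alone changed it past the test. Both LXR genes were higher and the LXR targets ABCA1 and MYLIP lower with the combination as deposited, and ABCA1, MYLIP and NR1H2 kept those calls when corrected.

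The GRAMD1 genes encode the Aster proteins, which carry cholesterol from the plasma membrane to the endoplasmic reticulum, and their 3 members behaved differently. GRAMD1B (chr11:123358428-123627774, plus strand) was at 23.3, 23.1 and 22.6 with DMSO and 125, 127 and 126 with ceritinib. With crenolanib GRAMD1B was at 28.4, 27.2 and 28.01 and with both drugs at 62.3, 64.3 and 61.7. The 4 groups did not overlap, in the order DMSO, crenolanib, combination, ceritinib. GRAMD1B rose by 2.402 ± 0.0258, adjusted p = 1.52e-14 with ceritinib, with 5.47 times the mean FPKM of DMSO, the largest single-drug change of the 36. It rose by 0.27 ± 0.0258, adjusted p = 2.23e-05 with crenolanib and by 1.41 ± 0.0258, adjusted p = 2.65e-13 as deposited and 1.77 ± 0.0221, adjusted p = 3.06e-14 corrected with both. With both drugs it was lower than with ceritinib alone, the difference being -0.99 ± 0.0258, adjusted p = 3.09e-12 as deposited and -0.62 ± 0.0221, adjusted p = 1.07e-10 corrected. The combination minus the sum of both single-drug changes was -1.26 ± 0.0364, adjusted p = 3.78e-11 as deposited and -0.87 ± 0.0312, adjusted p = 3.85e-10 corrected. GRAMD1A (chr19:34994784-35026471, plus strand) was at 6.05, 6.48 and 6.16 with DMSO and 5.99, 6.33 and 5.91 with ceritinib. With crenolanib GRAMD1A was at 6.11, 6.13 and 5.74 and with both drugs at 9.61, 8.69 and 8.94. Only the combination libraries stood out, with 0.48 ± 0.0434, adjusted p = 2.99e-07 as deposited and -0.13 ± 0.0403, adjusted p = 0.00847 corrected, opposite in direction. GRAMD1C (chr3:113828182-113947174, plus strand) was at 1.09, 1.004 and 1.12 with DMSO and 0.902, 0.879 and 0.8805 with ceritinib. With crenolanib GRAMD1C was at 1.04, 0.873 and 0.984 and with both drugs at 0.1698, 0.2104 and 0.239. It was near 1 FPKM outside the combination and low in it, at 0.192 of its DMSO mean. The difference from DMSO was -0.78 as deposited and -0.015 corrected. Both are given with no test because GRAMD1C too reached the level for testing through DMSO. In DMSO the order of levels was GRAMD1B, GRAMD1A, GRAMD1C, and GRAMD1B was the only one of the 3 that either single drug changed past the test as deposited. On the TPM scale GRAMD1C passed it too, with ceritinib (-0.28), but the filter favoured that difference, so it supports nothing.

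**Figure D4:**
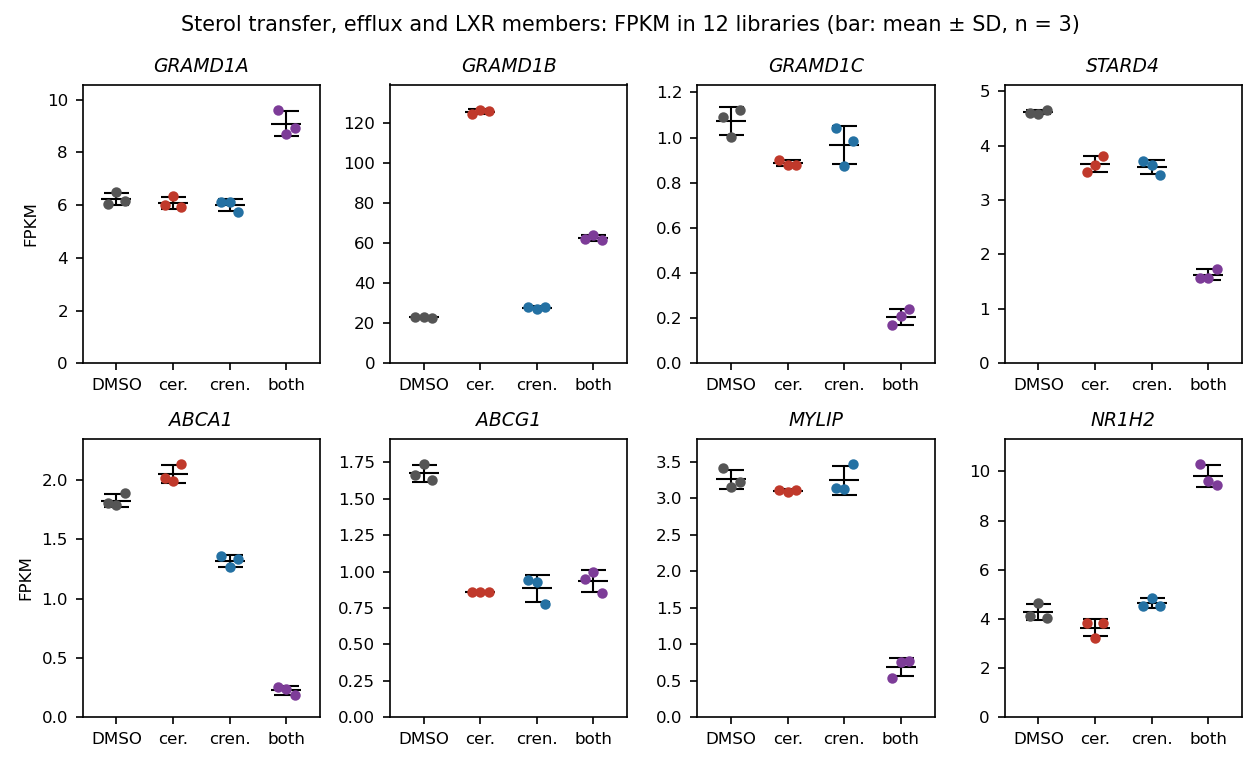
FPKM (vertical axis, from 0) of the 3 GRAMD1 genes, STARD4, ABCA1, ABCG1, MYLIP and NR1H2 in the 12 libraries, by group (cer., ceritinib; cren., crenolanib; both, the combination); points are libraries and bars the mean ± SD, n = 3. GRAMD1B peaks with ceritinib, at a mean of 126, ABCG1 is lower in the 3 drug groups than in DMSO, and MYLIP and ABCA1 are lowest with both drugs.

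The combination was next compared with each drug and with the sum of their changes. Against ceritinib alone 23 of 36 members were higher and 10 lower as deposited (background 35.9% and 51.3%), and 26 and 4 corrected (background 39.4% and 39.8%). Against crenolanib alone 23 were higher and 9 lower as deposited (background 37.4% and 50.1%), and 26 and 5 corrected (background 39.3% and 39.7%). Among the 20 enzymes, 14 were higher and 4 lower against ceritinib as deposited, and 19 and 0 corrected. Against crenolanib the enzymes gave 14 and 4 as deposited, and 18 and 1 corrected. Each of these counts of higher members or higher enzymes includes TM7SF2, whose rise the filter favoured. The enzymes lower as deposited were LBR and SC5D in both comparisons, with IDI1 and GGPS1 against ceritinib and HMGCS1 and CYP51A1 against crenolanib. The interaction is the combination change minus the sum of both single-drug changes on the log2 scale. It was called above 0 in 23 members and below 0 in 11 as deposited (background 33.8% and 47.7%). When corrected, it was called above 0 in 28 and below 0 in 5 (background 35.2% and 35.0%). The 23 and the 28 include TM7SF2 and ABCG1, and GRAMD1C is among the 11 and, when corrected, the 28. Each of these genes passed the filter through a single group only, so its interaction supports nothing. For the enzymes as deposited, 14 of 20 interactions were called above 0 and 5 (HMGCS1, IDI1, CYP51A1, LBR and SC5D) below, with a median of 0.97. That of GGPS1, at -0.15, was not called. When corrected, 19 were called above 0 and 1, that of LBR, below, with a median of 0.81. The near uniform direction is thus seen in the corrected values only. Both enzyme counts above 0 include TM7SF2, whose rise with both drugs the filter favoured.

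ACAT2 gave an interaction of 1.02 ± 0.0501, adjusted p = 1.76e-09 as deposited and 1.06 ± 0.0437, adjusted p = 1.12e-09 corrected. FDFT1 gave 1.19 ± 0.0421, adjusted p = 1.23e-10 as deposited and 1.27 ± 0.03503, adjusted p = 6.49e-11 corrected. SREBF2 gave 0.74 ± 0.0516, adjusted p = 4.07e-08 as deposited and 0.63 ± 0.0399, adjusted p = 4.22e-08 corrected, so all 3 lay above 0 on both scales. SQLE was smaller, at 0.25 ± 0.0483, adjusted p = 0.000377 as deposited and 0.51 ± 0.0432, adjusted p = 5.11e-07 corrected, and -0.012 when scaled without genes of mitochondrial DNA. For ABCG1, with each drug alone and both together at like levels, it was 0.56 as deposited and 0.42 corrected. Both ABCG1 values are given with no test because the filter favoured its high DMSO level. MYLIP lay below 0, at -1.28 ± 0.0802, adjusted p = 1.49e-08 as deposited and -0.99 ± 0.0731, adjusted p = 1.49e-07 corrected, as did ABCA1, at -1.03 ± 0.0634, adjusted p = 1.3e-08 as deposited and -0.24 ± 0.06303, adjusted p = 0.00476 corrected. For HMGCS1, IDI1, CYP51A1, SC5D and STARD4 the interaction was called below 0 as deposited and above 0 corrected. GRAMD1C went from -0.57 as deposited to 0.18 corrected, given with no test because of the filter.

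Set directly against each other, the single drugs differed in 20 members: 7 were higher with ceritinib and 13 higher with crenolanib (background 19.4% and 15.4%). Of the enzymes, 9 of 20 were higher with crenolanib and 3 with ceritinib, the latter being MVK, IDI1 and GGPS1. ACAT2 differed by -0.54 ± 0.0354, adjusted p = 4.33e-07 (ceritinib minus crenolanib) and FDPS by -0.31 ± 0.02803, adjusted p = 5.79e-06. CYP51A1 differed by -0.23 ± 0.0412, adjusted p = 0.00107 and SREBF2 by -0.20 ± 0.0365, adjusted p = 0.00152, so all 4 were higher with crenolanib. GRAMD1B was higher with ceritinib by 2.14 ± 0.0258, adjusted p = 6.1e-14, and ABCA1 by 0.39 ± 0.0448, adjusted p = 4.16e-05. Without ceritinib replicate 1 or crenolanib replicate 1, 4 members were higher with ceritinib, and with no filter on low values 3 were. The shares over all genes in those fits are not given. Several of these calls depended on single libraries: MVK was lost without crenolanib replicate 1, ceritinib replicate 1 or ceritinib replicate 2 (adjusted p = 0.07 to 0.096). GGPS1 was lost without crenolanib replicate 2, crenolanib replicate 3, ceritinib replicate 1 or ceritinib replicate 3 (adjusted p = 0.0614 to 0.0941). SQLE was lost with a replicate block and without crenolanib replicate 1, crenolanib replicate 2, ceritinib replicate 1 or ceritinib replicate 3 (adjusted p = 0.0578 to 0.134). EBP was lost without crenolanib replicate 1, ceritinib replicate 2 or ceritinib replicate 3 (adjusted p = 0.0597 to 0.0879). SREBF1 was lost without crenolanib replicate 1, crenolanib replicate 3 or ceritinib replicate 1 (adjusted p = 0.0531 to 0.0664). NR1H3 was lost without crenolanib replicate 1 or ceritinib replicate 2 (adjusted p = 0.0523 to 0.0671). MSMO1, which rose with each drug alone, differed between them by 0.081, with a 95% interval from -0.0020 to 0.16. STARD4, which fell with each alone, differed by 0.016, with an interval from -0.075 to 0.11.

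Genes around the pathway gave the setting for these changes. Over all tested genes the shares that rose and fell were 20.3% and 16.3% with ceritinib, 13.0% and 13.0% with crenolanib, and 36.8% and 50.9% with both as deposited (39.5% and 40.7% corrected). Of 15 genes of sterol sensing and SREBP activation, 4 rose and 3 fell with ceritinib, 2 rose and 1 fell with crenolanib and 8 rose and 6 fell with both as deposited (12 rose and 1 fell corrected). TMEM97, which binds NPC1, rose with ceritinib (0.34 ± 0.0474, adjusted p = 0.000171), with crenolanib (0.31 ± 0.0474, adjusted p = 0.000568) and with both (0.36 ± 0.0474, adjusted p = 1.18e-05, and 0.59 corrected). TMEM97 was at 13.7 ± 0.392 FPKM without drug and at 17.5 ± 0.0848 in the ceritinib libraries (mean ± SD, n = 3), and the single drugs differed by 0.026 (adjusted p = 0.713). Of 17 genes of uptake, lysosomal and vesicular sterol transport, 1 rose and 5 fell with ceritinib, 3 rose and 2 fell with crenolanib and 7 rose and 9 fell with both (11 rose and 4 fell corrected). VLDLR, a receptor for triglyceride-rich lipoproteins, fell with ceritinib (-0.88 ± 0.0402, adjusted p = 1.51e-08), with crenolanib (-0.50 ± 0.0402, adjusted p = 4.58e-06) and with both (-1.096 ± 0.0402, adjusted p = 4.71e-11, and -0.19 corrected). SCARB1, the receptor for high-density lipoprotein, rose with ceritinib (0.37 ± 0.0395, adjusted p = 2e-05), with crenolanib (0.26 ± 0.0395, adjusted p = 0.000664) and with both (0.41 ± 0.0395, adjusted p = 5.16e-07, and 0.38 corrected). NPC2, the lysosomal partner of NPC1, rose with crenolanib (0.36 ± 0.0352, adjusted p = 2.26e-05) and with both (0.65 ± 0.0352, adjusted p = 1.82e-09, and 0.86 corrected). CAV1, the main protein of caveolae, fell with both drugs (-1.72 ± 0.0256, adjusted p = 1.35e-13, and -1.43 corrected) and by far less with ceritinib (-0.093 ± 0.0256, adjusted p = 0.014). Of 12 genes of oxysterol and LXR-RXR signalling only 6 reached the level for testing, and 3 rose and 2 fell with both (2 rose and 2 fell corrected). The corepressor NCOR1 fell with both drugs (-1.61 ± 0.0361, adjusted p = 1.03e-12, and -0.84 corrected), and neither alone passed (-0.057 and -0.0073).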

How the data were processed

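Expression was measured by strand-specific RNA sequencing in 12 libraries of 143B cells, 4 groups of 3. The submitters' processing notes name FastQC 0.11.2, STAR, StringTie and the build hg38. Other tool versions, the annotation and the strand setting of the counting are not given here in any source. The authors deposited FPKM per gene symbol; the unit was read from the values. An entry with no gene name took at most 0.00426% of the FPKM per library and was left out. Reads of antisense neighbours (ACAT2 with TCP1, MVK with MMAB, GGPS1 with ARID4B, SREBF1 with RAI1, NR1H3 with ACP2) may be shared if strand was not used.

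limma 3.58.1 (R 4.3.3) was run on log2(FPKM + 1) with a mean for each group. The 11944 genes that reached 1 FPKM in 3 or more libraries were tested, with 8 residual degrees of freedom and Benjamini-Hochberg adjustment within each of 7 comparisons. The pseudocount of 1 understates the change of low genes. The correction took out smooth trends (splines with 5 degrees of freedom) in GC percent and log2 length, for 11733 genes (98.2%). GC percent and length are those of the longest GENCODE 29 transcript. The same trend was taken from genes of any level, so low genes may be overcorrected. Depth, 19.6 to 28.2 M fragments, was estimated from the smallest FPKM steps and used in no test. The fit was tested on simulated data. Values in every library are given for up to 3 members per class, direction and comparison with the smallest adjusted p and for the GRAMD1 genes, and up to 4 surrounding genes are named per comparison. The members and lists were chosen with earlier results of these data known. Alternatives were another pseudocount, a stricter filter and none, TPM, median-of-ratios and scaling without mitochondrial genes, a replicate block, fits of the compared groups only, and leaving out each library.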

Additional observations from a re-analysis of the deposited data

How the results depend on the processing

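The deposited and the corrected combination values are the main dependence. Removing the GC and length trend, with or without a replicate block, turned 26 called member values. HMGCS1 became 0.47 against crenolanib and 0.28 in the interaction. IDI1 became 0.46 against ceritinib and 0.41 in the interaction. GGPS1 became 0.44 against DMSO and 0.37 against ceritinib. CYP51A1 became 0.36 against crenolanib and 0.32 in the interaction. SC5D became 0.23 against DMSO, 0.36 against ceritinib, 0.071 against crenolanib and 0.20 in the interaction. SREBF1 became -0.090 against DMSO, -0.21 against ceritinib and -0.10 in the interaction. STARD4 became 0.23 in the interaction. SOAT1 became 0.0023 against DMSO and 0.029 against ceritinib. NR1H3 became -0.027 against ceritinib. GRAMD1A became -0.13 against DMSO, -0.068 against ceritinib, -0.073 against crenolanib and -0.0065 in the interaction. GRAMD1C became 0.11 against ceritinib, 0.052 against crenolanib and 0.18 in the interaction. It lowered the number of members that fell to 5 with both drugs against DMSO, 4 against ceritinib, 5 against crenolanib and 5 in the interaction. Scaling without mitochondrially encoded genes turned HMGCS1 with both drugs (-0.040), SQLE in the interaction (-0.012) and SREBF1 against ceritinib (-0.050), and median-of-ratios scaling turned IDI1 against ceritinib (0.036). On the TPM scale 4 members rose with ceritinib. With a minimum of 5 FPKM, which tests fewer members, 2 fell with ceritinib, 0 with crenolanib and 3 with both. At that minimum 5 were lower with both than with ceritinib and 5 than with crenolanib. There, 4 were higher with ceritinib than with crenolanib, and 7 interactions were called below 0. With no filter 3 were higher with ceritinib than with crenolanib. Leaving out each library gave 5 to 11 members higher with ceritinib (lowest without ceritinib replicate 1), 3 to 6 lower (lowest without DMSO replicate 2), 15 to 18 higher with crenolanib, and 4 to 7 higher with ceritinib than with crenolanib (lowest without ceritinib or crenolanib replicate 1). The replicate numbers were not taken as pairs: of 18 same-numbered pairs 1 had a correlation over 0.1 (median -0.00115, range -0.0833 to 0.165), and 5 of 12 libraries correlated best with their own number. With the replicate block 10 members rose and 4 fell with ceritinib, 17 and 3 with crenolanib, 24 and 9 with both, 23 and 10 against ceritinib, 23 and 9 against crenolanib, 7 and 12 between the single drugs, and 23 and 11 in the interaction. The cause of these shifts was not tested. For the scaling, filter, leave-one-out and replicate-block counts, the shares over all tested genes are not given. Such counts show how far the calls hold and are not read against a background. ABCG1, GRAMD1C, NR1H3 and TM7SF2 had the lowest FPKM of the members in DMSO, and so the fewest fragments per length behind their values. With both drugs GRAMD1C (0.206), ABCA1 (0.228), MYLIP (0.687) and ABCG1 (0.933) had means under 1 FPKM.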

Other observations

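Genes that share regulators or substrates with cholesterol synthesis were also read. Over all tested genes the shares that rose and fell were 20.3% and 16.3% with ceritinib, 13.0% and 13.0% with crenolanib, and 36.8% and 50.9% with both as deposited (39.5% and 40.7% corrected). Of 10 fatty acid enzymes linked to SREBP, 2 rose and 2 fell with ceritinib, 5 rose and 0 fell with crenolanib and 7 rose and 3 fell with both as deposited (8 rose and 0 fell corrected). FADS2, a desaturase of polyunsaturated fatty acids, rose with crenolanib (0.68 ± 0.0461, adjusted p = 1.15e-06) and with both (2.097 ± 0.0461, adjusted p = 9.16e-13, and 1.85 corrected), and FADS1, its partner, rose with crenolanib (0.34 ± 0.0264, adjusted p = 3.15e-06) and with both (1.06 ± 0.0264, adjusted p = 2e-12, and 1.24 corrected). ACSS2, which makes acetyl-CoA from acetate, fell with ceritinib (-0.49 ± 0.0475, adjusted p = 9.51e-06) but rose with both (1.67 ± 0.0475, adjusted p = 5.23e-12, and 1.42 corrected).

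Another 13 genes use isoprenoids for other ends, such as protein prenylation and ubiquinone. Of these, 3 rose and 2 fell with ceritinib (background 20.3% and 16.3%), and 4 rose and 1 fell with crenolanib (background 13.0% and 13.0%). With both drugs 5 rose and 7 fell as deposited (background 36.8% and 50.9%). Corrected, 7 rose and 4 fell (background 39.5% and 40.7%). The ceritinib counts and the deposited counts with both drugs were near the background. RABGGTB, a subunit of the enzyme that prenylates Rab proteins, fell with both drugs (-2.11 ± 0.0351, adjusted p = 1.62e-13, and -1.35 corrected), from 14.7 ± 0.192 to 2.64 ± 0.0431 FPKM (mean ± SD, n = 3). It also fell with ceritinib (-0.12 ± 0.0351, adjusted p = 0.021).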
